A study of Homo sapiens with 6 samples.

Results

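Of 23228 genes listed for MDA-MB-231 breast cancer cells, 49 were read in cells given a scrambled shRNA and were nearly unread in the libraries labelled SCUBE3 knockdown. They were chosen by these reads themselves: at most 3 reads summed over the 3 libraries labelled knockdown, and a mean of at least 1 CPM (reads of a gene, scaled to 1000000 reads in the genes of that library) over the 3 scramble libraries. Of 12260 genes with that scramble level, 58 met the rule (0.473%), and 9 were left out by name or gene family, which left 49 (0.400%). The differences in reads between the groups are therefore a description of the choice, and no test of them is given.

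MDA-MB-231 is a human triple-negative breast cancer line. Per the labels, cells received lentivirus with an shRNA plasmid against SCUBE3 (3 libraries) or a scrambled shRNA plasmid (3 libraries), and both groups went through puromycin selection. SCUBE3, a secreted glycoprotein with EGF-like repeats, was checked at the protein level by western blot, per the labels. The labels give neither the shRNA sequence nor whether a group came from 1 or several transductions, so each group may be 1 selected population, and a p-value speaks for the spread among these 6 libraries alone. Reads in genes numbered 24249429 to 25520901 in libraries labelled knockdown and 21348509 to 24234762 in scramble libraries. SCUBE3 RNA had 99, 107 and 101 reads in libraries labelled knockdown and 96, 91 and 80 reads in scramble libraries, which is a log2 difference of 0.03 with an SE of 0.14 (adjusted p = 0.871 by edgeR, n = 3 per group), so the RNA does not bear out the label. Of 13606 genes tested, 85.9% differed between the groups at an adjusted p under 0.05.

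Many genes are kept silent outside the tissue that uses them, through repressive chromatin, through DNA methylation of the promoter, or for lack of the activating factors. Cancer cells often read some of them out of place, among them germ-line genes and genes of neurons or blood cells. Whether such a gene is on can be a heritable state of a cell, so that clones of 1 line can differ in it. In bulk RNA, fewer cells that read a gene and less RNA of it per cell cannot be told apart.

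Promoters differ in how many CpG dinucleotides, the sites of DNA methylation, they hold. The 250 bases upstream of the RefSeq start are shown for 6 of the 49 genes, 3 of them poor and 3 rich in CpG, because members near silence came from both kinds. Bases are in lower case, CpG dinucleotides are in capitals, and all run 5′ to 3′ on the gene's strand in RefSeq's GRCh38.p14. FOXR2 lies at chrX:55623150-55623399 on the plus strand, AADAC at chr3:151813866-151814115 on the plus strand and CDH18 at chr5:20575714-20575963 on the minus strand. FAM84A lies at chr2:14632467-14632716 on the plus strand, GPC4 at chrX:133415490-133415739 on the minus strand and PIWIL1 at chr12:130337637-130337886 on the plus strand.
FOXR2: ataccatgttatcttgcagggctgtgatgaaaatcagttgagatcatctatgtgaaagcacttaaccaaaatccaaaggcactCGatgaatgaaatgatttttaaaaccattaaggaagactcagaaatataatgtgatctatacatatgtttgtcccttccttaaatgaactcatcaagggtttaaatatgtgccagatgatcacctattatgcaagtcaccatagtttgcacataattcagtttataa
AADAC: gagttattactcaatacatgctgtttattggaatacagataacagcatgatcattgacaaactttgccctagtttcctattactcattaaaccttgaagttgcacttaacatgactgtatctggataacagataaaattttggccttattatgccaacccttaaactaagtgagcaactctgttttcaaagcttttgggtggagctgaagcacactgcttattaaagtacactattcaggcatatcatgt
CDH18: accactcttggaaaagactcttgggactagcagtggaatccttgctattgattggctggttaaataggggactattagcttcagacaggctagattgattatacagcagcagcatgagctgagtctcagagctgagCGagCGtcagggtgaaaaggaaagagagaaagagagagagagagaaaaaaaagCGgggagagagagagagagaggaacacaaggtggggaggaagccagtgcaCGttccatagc
FAM84A: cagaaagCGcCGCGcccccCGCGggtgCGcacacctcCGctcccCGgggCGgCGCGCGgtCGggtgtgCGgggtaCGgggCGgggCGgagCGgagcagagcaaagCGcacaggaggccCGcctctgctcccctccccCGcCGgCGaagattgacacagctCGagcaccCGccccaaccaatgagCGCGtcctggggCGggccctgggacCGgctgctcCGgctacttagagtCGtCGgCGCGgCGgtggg
GPC4: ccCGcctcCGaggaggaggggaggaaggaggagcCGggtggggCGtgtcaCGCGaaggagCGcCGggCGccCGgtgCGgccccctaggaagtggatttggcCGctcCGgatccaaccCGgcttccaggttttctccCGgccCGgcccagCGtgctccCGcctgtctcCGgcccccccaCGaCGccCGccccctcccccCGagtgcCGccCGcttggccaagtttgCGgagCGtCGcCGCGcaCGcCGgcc
PIWIL1: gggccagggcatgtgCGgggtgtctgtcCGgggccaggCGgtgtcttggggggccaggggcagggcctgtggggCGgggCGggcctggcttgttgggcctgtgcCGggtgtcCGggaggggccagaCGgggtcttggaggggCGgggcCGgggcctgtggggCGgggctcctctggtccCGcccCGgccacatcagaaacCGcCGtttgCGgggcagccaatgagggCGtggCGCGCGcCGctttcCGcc

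The FOXR2 window held 1 CpG at 33.6% G+C, the AADAC window 0 at 35.6% and the CDH18 window 4 at 48.4%. By contrast, the FAM84A window held 35 CpG at 76% G+C, the GPC4 window 32 at 76% and the PIWIL1 window 22 at 76.8%. RefSeq promoter windows (250 bases before to 50 after the start) were matched for 33 of the 49 genes. Genes without a window, among them HOXC10, HOXC13, LDB2, TOX3, NKD1 and ZDHHC22, are not covered. The ratio of observed to expected CpG had a median of 0.410 over these 33, against 0.839 over 10693 other genes tested and 0.580 over all 27305 windows of the table. A ratio of at least 0.6 was found in 10 of the 33 (30.3%), against 82.6% of other genes tested and 48.96% of all windows. The other genes tested were not matched to the group by level. For comparison, a ratio of at least 0.6 was found in 61.3% of 194 other genes called lower by at least 3 on the log2 scale (2.33% of all genes tested were called lower by that much), and in 49.2% of 421 called higher by that much. Median G+C was 59.3% over the 33 windows, against 65.3% over other genes tested and 58.3% over the table.

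Short motifs were counted on both strands of the same windows, as letters and not as sites. TATAAA was in 4 of the 33 windows (12.1%), those of FOXR2, KC6, RBFOX3 and DNAJC12, against 5.67% of other genes tested and 11.95% of all windows. GGGCGG was in 42.4% of the 33, against 69.96% of other genes tested and 44.6% of all. CGGAAG was in 12.1%, against 32.8% of other genes tested and 19.9% of all. CACGTG was in 6.06%, against 10.1% and 7.43% in the same order, and TGACGT in 9.09%, against 11.5% and 8.32%. In all 5 motifs the share over the 33 windows stood nearer to that over the whole table than to that over other genes tested. CACGTG and TGACGT were in only 2 and 3 of the 33 windows, too few to place their shares. Among other genes lower by a log2 of at least 3, TATAAA was in 14.43%, and among genes higher by that much in 13.06%. CGGAAG was in 12.37% and 14.96% in the same order, and GGGCGG in 53.09% and 54.39%. CACGTG was in 7.73% and 7.601%, and TGACGT in 6.19% and 5.701%. The TATAAA and CGGAAG shares were thus not particular to the group.

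**Figure D1:**
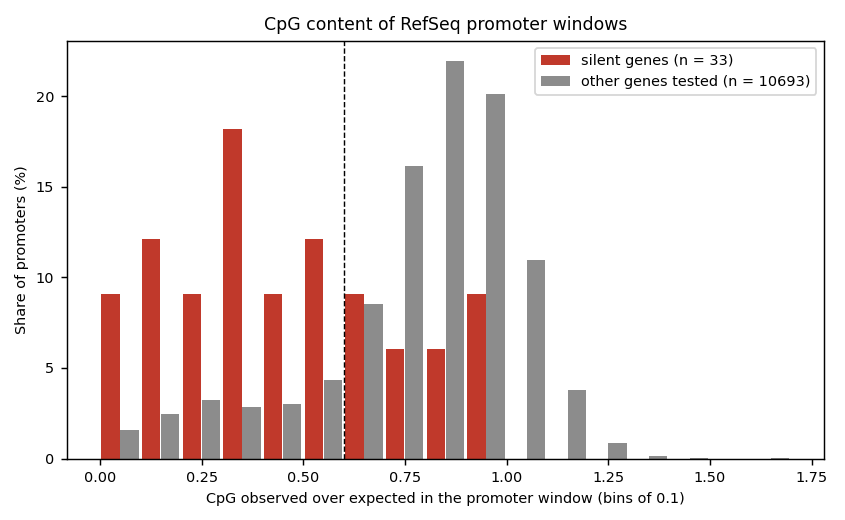
Share of promoter windows (y axis, percent) by the ratio of observed to expected CpG (x axis, no unit) for the 33 matched genes of the group (left bars) and for other genes tested (right bars); the dashed line marks 0.6. The 33 windows had a median of 0.410, against 0.839 for other genes tested.

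Over the 49 genes, the libraries labelled knockdown held 11, 16 and 16 reads in all, against 5513, 4797 and 4987 in scramble libraries. Each library labelled knockdown had a read for 9 to 11 of the genes, whereas each scramble library had reads for all 49. In libraries labelled knockdown, 24 genes had 0 reads in all 3, 13 had 1 read, 6 had 2 and 6 had 3. Scramble means ran from 1.001 to 34.7 CPM with a median of 2.26 CPM, and the 5 highest genes held 45.8% of the scramble reads of the group. All 49 entered the fit over 13606 genes, of which 42.5% were called lower, but since the reads of this contrast chose them, nothing is read from their calls. For a gene with 0 reads, folds are given as bounds against a floor of 3 reads over the 3 libraries labelled knockdown (0.0404 CPM), and these bounds ran from 24.7-fold to 420-fold. Floors and intervals cover counting error only.

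**Figure D2:**
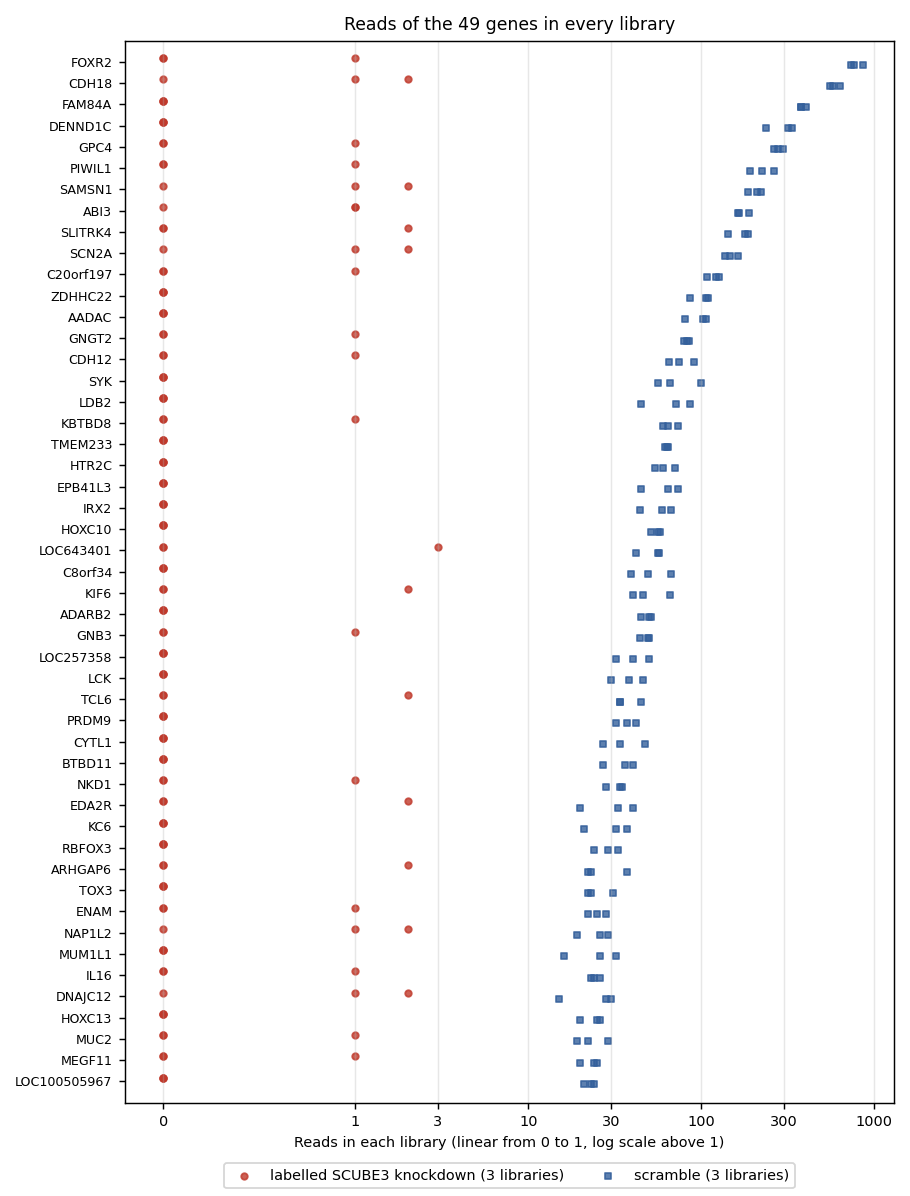
Reads per library (x axis, linear from 0 to 1 and log above) of the 49 genes (y axis, ordered by scramble level) in the 3 libraries labelled SCUBE3 knockdown (circles) and the 3 scramble libraries (squares). No library labelled knockdown had over 3 reads for any of the genes, and no scramble library had under 15.

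Transcription factors and their partners made up 6 of the 49 genes, with 1 read in all in libraries labelled knockdown and 3049 in scramble libraries. FOXR2 encodes a forkhead factor that is silent in most adult tissues and acts as an oncogene when switched on in brain tumours. FOXR2 had 0, 0 and 1 reads in libraries labelled knockdown, against 865, 762 and 738 reads in scramble libraries. It was also the highest of the group per length, at 18.01 ± 0.898 CPM per kb of exon (SD, n = 3) in scramble libraries, ahead of CDH18 at 6.04 ± 0.0632 CPM per kb. IRX2, an Iroquois homeobox factor of embryonic patterning, had 0 reads in each library labelled knockdown, against 59, 44 and 67 in scramble libraries. HOXC10, a posterior homeobox factor, had 0 reads in each, against 56, 51 and 58 in scramble libraries. HOXC13, which drives hair and nail keratin genes, had 0 reads in each, against 20, 25 and 26 in scramble libraries. LDB2, a bridging partner of LIM-domain factors, had 0 reads in each, against 86, 45 and 71 in scramble libraries. TOX3, an HMG-box protein at a breast cancer susceptibility locus, had 0 reads in each, against 31, 22 and 23 in scramble libraries. The 5 genes other than FOXR2 thus gave no read in any library labelled knockdown, with bounds from at least 25.8-fold lower for HOXC13 to at least 73.4-fold lower for LDB2.

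Genes known mainly from neurons numbered 9 and held 22.9% of the group's scramble reads. CDH18 and CDH12 encode type II cadherins, calcium-dependent adhesion proteins of the brain. CDH18 had 1, 0 and 2 reads in libraries labelled knockdown, against 630, 552 and 575 reads in scramble libraries. Its scramble level over its level in libraries labelled knockdown was 638 (95% counting interval 218 to 3098). CDH12 had 1, 0 and 0 reads, against 91, 74 and 65 reads in scramble libraries. SLITRK4 encodes a leucine-rich repeat membrane protein of synapses. It had 0, 0 and 2 reads in libraries labelled knockdown, against 178, 143 and 185 reads in scramble libraries. SCN2A encodes the pore subunit of a neuronal voltage-gated sodium channel. It had 2, 1 and 0 reads in libraries labelled knockdown, against 162, 137 and 146 reads in scramble libraries. HTR2C encodes a serotonin receptor whose own RNA is edited in the brain, and it had 0 reads in each library labelled knockdown, against 70, 60 and 54 in scramble libraries.

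Neuronal RNA-binding and chromatin proteins also met the rule. ADARB2, a brain member of the ADAR family with no editing activity shown, had 0 reads in each library labelled knockdown, against 50, 45 and 51 in scramble libraries. RBFOX3, the splicing factor known as the neuronal marker NeuN, had 0 reads in each, against 29, 24 and 33 in scramble libraries. NAP1L2, a nucleosome assembly protein needed for neural development in mouse, had 0, 1 and 2 reads, against 29, 26 and 19 in scramble libraries. MEGF11, which spaces neurons of the mouse retina, had 0, 1 and 0 reads, against 25, 24 and 20 in scramble libraries. In all 9 of these genes every scramble library was above every library labelled knockdown, which the rule that chose them all but fixes.

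Markers of neurons were examined beside them. Of 18 neuronal marker genes, 10 had 0 reads in all 6 libraries, among them STMN2, GAP43, NEFL and DCX, and 4 entered the fit. Of the 4, 1 fell (25%) and 3 rose (75%), beside 42.5% and 43.4% of all genes tested. MAPT, the microtubule protein tau, fell to 0.725 ± 0.253 CPM in libraries labelled knockdown, against 4.61 ± 0.799 CPM in scramble libraries (SD, n = 3 each; these CPM are scaled by TMM factors, as are those of other genes outside the 49 unless said otherwise). L1CAM, a neural adhesion molecule, rose to 265 ± 5.66 CPM, against 12.4 ± 1.62 CPM in scramble libraries, and SYT1 and SYP also rose. The summed level of the 18 was 267 to 277 CPM in libraries labelled knockdown and 20.4 to 23.6 CPM in scramble libraries, and L1CAM was the highest of the 18 in both groups. How these marker levels relate to the 9 genes was not tested.

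Signalling proteins of blood cells formed another set of 5 genes. SAMSN1, an SH3 and SAM domain adaptor of lymphocytes, had 0, 2 and 1 reads in libraries labelled knockdown, against 222, 211 and 186 reads in scramble libraries. ABI3, an Abelson-interactor protein that can take part in the actin-regulating WAVE complex, had 1, 0 and 1 reads, against 162, 165 and 189 in scramble libraries. SYK, the tyrosine kinase downstream of B cell and Fc receptors, had 0 reads in each, against 100, 56 and 66 in scramble libraries. LCK, the SRC-family kinase of T cell receptor signalling, had 0 reads in each, against 38, 30 and 46 in scramble libraries. IL16, whose product attracts CD4+ cells, had 0, 0 and 1 reads, against 24, 23 and 26 in scramble libraries. Per kb of exon, SAMSN1 had 2.93 ± 0.265 CPM and ABI3 3.60 ± 0.404 CPM in scramble libraries (SD, n = 3), and the highest of the other 3 was LCK at 0.669 ± 0.132 CPM.

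Haematopoietic markers gave the following counts. Of 26 such markers, 10 entered the fit, of which 5 fell (50%) and 4 rose (40%), beside 42.5% and 43.4% of all genes tested. CD37, SPI1, IKZF1 and SASH3 had 0 reads in all 6 libraries, and PTPRC, the common leukocyte antigen, had 3, 4 and 4 reads in libraries labelled knockdown and 4, 2 and 3 in scramble libraries. The summed level of the 26 was 511 to 535 CPM in libraries labelled knockdown and 1082 to 1170 CPM in scramble libraries. ARHGDIB, a GTPase regulator also read in epithelial cancers, made up most of that gap with 100 ± 3.69 CPM in libraries labelled knockdown and 676 ± 25.0 CPM in scramble libraries. LAPTM5, a lysosomal membrane protein of leukocytes, fell to 106 ± 2.58 CPM in libraries labelled knockdown, against 185 ± 6.76 CPM in scramble libraries. ITGB2, the beta chain of leukocyte integrins, fell to 21.5 ± 1.67 CPM, against 71.0 ± 2.71 CPM in scramble libraries. CD33, a myeloid lectin, fell to 0.0662 ± 0.0614 CPM, against 10.2 ± 0.398 CPM in scramble libraries. The 4 that rose were RAC2, DOCK2, CD14 and WAS. RAC2 had 261 ± 7.07 CPM in libraries labelled knockdown and 159 ± 10.8 CPM in scramble libraries. CD14 had 6.19 ± 0.433 CPM and 0.234 ± 0.127 CPM in the same order. The list thus held genes at or near 0 in both groups, such as PTPRC, CD53 and CD3E, beside genes that fell and genes that rose. Their part in the near silence of the 5 genes was not tested.

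Among 22 actin regulators of blood cells, a list that includes ABI3, 17 others entered the fit, of which 8 fell (47.1%) and 6 rose (35.3%), beside 42.5% and 43.4% of all genes tested. Their median log2 fold change was -0.14, against 0.01 over all genes tested. Of the 17, 7 fell at least 2-fold (41.2%), beside 13.8%, and 2 rose at least 2-fold, beside 17.5% of all genes tested. LCP1, an actin-bundling plastin of leukocytes, fell to 2.70 ± 0.234 CPM, against 665 ± 19.3 CPM in scramble libraries. ARHGAP30, a GTPase-activating protein, fell to 0.595 ± 0.0260 CPM, against 88.4 ± 2.21 CPM in scramble libraries. CYFIP2, a WAVE complex subunit, fell by 3.84 on the log2 scale (SE 0.10). BRK1, a small subunit of the same complex, rose by 0.81 (SE 0.04), as did RAC2, a small GTPase of blood cells, by 0.72 (SE 0.04). WAS rose by 2.39 (SE 0.55), with 15, 13 and 15 reads in libraries labelled knockdown, against 0, 3 and 4 in scramble libraries. ARPC1B rose by 1.39 (SE 0.04).

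Both germ-line genes of the group act in male meiosis or in transposon silencing. PIWIL1, which binds piRNAs to silence transposons in the testis, had 1, 0 and 0 reads in libraries labelled knockdown, against 262, 191 and 225 reads in scramble libraries. PRDM9, the histone methyltransferase that places meiotic recombination hotspots, had 0 reads in each, against 32, 37 and 42 in scramble libraries. Of 100 listed germ-line genes, which include PIWIL1, 63 had 0 reads in all 6 libraries, and of the 13 outside the group that entered the fit 5 fell (38.5%) and 6 rose (46.2%), beside 42.5% and 43.4% of all genes tested. MAEL, a partner of the piRNA pathway, rose to 2.77 ± 0.495 CPM in libraries labelled knockdown, against 0.240 ± 0.0298 CPM in scramble libraries. TPTE, a testis phosphatase-like protein, fell to 0.237 ± 0.0620 CPM, against 2.77 ± 0.685 CPM in scramble libraries.

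A pair of heterotrimeric G protein subunits known from photoreceptors and other signalling cells met the rule. GNGT2, a gamma subunit of cone transducin, had 1, 0 and 0 reads in libraries labelled knockdown, against 79, 85 and 83 reads in scramble libraries. GNB3, a beta subunit of cones, had 1, 0 and 0 reads, against 50, 49 and 44 in scramble libraries. The widely used subunits stayed abundant: GNB1 had 631 ± 6.08 CPM in libraries labelled knockdown and 430 ± 2.14 CPM in scramble libraries, and rose by 0.56 (SE 0.03) on the log2 scale.

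Surface and secreted proteins made up 5 genes. GPC4, a glypican that carries heparan sulfate chains on a lipid anchor and binds growth factors, had 0, 1 and 0 reads in libraries labelled knockdown, against 296, 262 and 279 reads in scramble libraries. Its CPM was the steadiest of the group, with a coefficient of variation of 0.602% over the scramble libraries. CYTL1, a small cytokine-like protein of cartilage, had 0 reads in each library labelled knockdown, against 34, 47 and 27 in scramble libraries. EDA2R, the receptor for an ectodysplasin isoform, had 0, 0 and 2 reads, against 33, 20 and 40 in scramble libraries. MUC2, the gel-forming mucin of the gut, had 0, 1 and 0 reads, against 29, 19 and 22 in scramble libraries. ENAM, a protein of tooth enamel, had 0, 0 and 1 reads, against 22, 28 and 25 in scramble libraries. In each of these 5 genes the groups were apart, as follows largely from the way they were chosen.

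Regulators of GTPases, motors and the membrane skeleton gave 4 genes. DENND1C, a DENN-domain activator of RAB GTPases in endocytic traffic, had 0 reads in each library labelled knockdown, against 334, 319 and 238 reads in scramble libraries. EPB41L3, which ties membrane proteins to the actin skeleton, had 0 reads in each, against 64, 45 and 73 in scramble libraries. KIF6, a kinesin linked to motile cilia in mouse, had 0, 2 and 0 reads, against 66, 46 and 40 in scramble libraries. ARHGAP6, a GTPase-activating protein, had 0, 0 and 2 reads, against 22, 37 and 23 in scramble libraries, the widest spread of the group at a coefficient of variation of 36.7%. Of 11 other DENND genes tested, 3 fell (27.3%) and 7 rose (63.6%), beside 42.5% and 43.4% of all genes tested.

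Enzymes, adaptors and other intracellular or membrane proteins were the most numerous, with 10 genes. FAM84A, named LRATD1 in RefSeq and known for effects on cell shape, had 0 reads in each library labelled knockdown, against 402, 375 and 379 reads in scramble libraries, the highest bound of the group at 420-fold. ZDHHC22, a palmitoyltransferase, had 0 reads in each, against 106, 86 and 110 in scramble libraries. AADAC, an esterase of liver and gut, had 0 reads in each, against 106, 81 and 102 in scramble libraries. These were at least 110-fold lower for ZDHHC22 and at least 105-fold lower for AADAC. KBTBD8, a substrate adaptor of cullin ubiquitin ligases in neural crest formation, had 1, 0 and 0 reads, against 73, 60 and 64 in scramble libraries. TMEM233, a small membrane protein, had 0 reads in each, against 64, 62 and 63 in scramble libraries. C8orf34, of little known function, had 0 reads in each, against 67, 49 and 39 in scramble libraries.

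The other 4 of these range from a synaptic protein to a chaperone. BTBD11, named ABTB3 in RefSeq and found at synapses of inhibitory neurons in mouse, had 0 reads in each library labelled knockdown, against 27, 40 and 36 in scramble libraries. NKD1, an inhibitor of Wnt signalling that binds Dishevelled, had 0, 1 and 0 reads, against 34, 35 and 28 in scramble libraries. MUM1L1, a PWWP-domain protein named PWWP3B in RefSeq, had 0 reads in each, against 32, 16 and 26 in scramble libraries. DNAJC12, a co-chaperone of aromatic amino acid hydroxylases, had 2, 1 and 0 reads, against 30, 28 and 15 in scramble libraries. DNAJC12 came closest to overlap between the groups of these 10 genes, and the gap between groups follows largely from the rule that chose them.

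The remaining 6 symbols were long noncoding RNAs or could not be matched. LOC643401, named PURPL in RefSeq and known as an RNA induced by p53, had 0, 3 and 0 reads in libraries labelled knockdown, against 57, 42 and 56 in scramble libraries. TCL6, from a T cell leukaemia breakpoint region, had 0, 2 and 0 reads, against 34, 34 and 45 in scramble libraries. LOC257358, named LINC01366 in RefSeq, had 0 reads in each library labelled knockdown, against 50, 32 and 40 in scramble libraries. KC6, of little known function, had 0 reads in each, against 37, 21 and 32 in scramble libraries. LOC100505967, named LINC00645 in RefSeq, had 0 reads in each, against 23, 24 and 21 in scramble libraries, the lowest mean of the group at 1.001 CPM. C20orf197, which had no match in RefSeq, had 0, 0 and 1 reads, against 121, 108 and 126 in scramble libraries. In all, 43 of the 49 were protein-coding and 5 were long noncoding RNAs.

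The cut-offs divide a continuum. Just inside by level were LOC100505967, MEGF11 and MUC2 at 1.001, 1.014 and 1.020 CPM. Just outside were PGR, the progesterone receptor, at 0.965 CPM, C5orf38 at 0.930 CPM and CDH13 at 0.920 CPM in scramble libraries, all by library totals. SHANK1, a synaptic scaffold with 0, 1 and 3 reads in libraries labelled knockdown, against 1109, 906 and 1068 reads in scramble libraries, missed the rule by 1 read. FOXA1, a pioneer factor of luminal breast cells, missed it in the same way with 1, 1 and 2 reads, against 480, 490 and 486 reads in scramble libraries. Of the members at the limit of 3 reads, CDH18, SAMSN1, SCN2A, LOC643401 and NAP1L2 were the highest.

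Among the scramble libraries the group varied about as other genes did at the same level. The median coefficient of variation was 6.20% for the 11 genes at 5 CPM or more, against 6.14% for 4355 other genes, and 16.6% for the 38 below, against 14.4% for 1642 other genes. No scramble library carried the group: 15, 17 and 17 of the 49 genes were highest in libraries 1, 2 and 3. The summed level was 0.449, 0.627 and 0.660 CPM in libraries labelled knockdown, against 227, 225 and 221 CPM in scramble libraries.

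By position, 48 of the 49 genes could be placed on RefSeq chromosomes. The X chromosome held 8 of them (16.7%), against 3.42% of 12152 placed genes with at least 1 CPM in scramble libraries. They were FOXR2, GPC4, SLITRK4, HTR2C, EDA2R, ARHGAP6, NAP1L2 and MUM1L1. Chromosome 5 held 6 (12.5%), against 4.58% of placed genes, and chromosome 12 also held 6 (12.5%), against 5.52%. Chromosome 1, with 10.0% of placed genes, held 1 of the 48. These shares are a description of where the chosen genes lie.

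Some members lay side by side. GNGT2 and ABI3 follow each other on chromosome 17 with no listed gene between them, and they overlap on opposite strands in GENCODE, so their reads may not be fully told apart. On the short arm of chromosome 5, CDH18, CDH12, PRDM9 and LOC643401 follow each other with 1, 1 and 3 listed genes between. Of the genes between and beside them, GUSBP1, a pseudogene, had 97, 99 and 115 reads in libraries labelled knockdown, against 258, 228 and 278 in scramble libraries, and fell by 1.47 on the log2 scale. LOC729862, also a pseudogene, fell by 2.44, and DROSHA, the nuclear microRNA-processing enzyme, fell by 1.59. CDH9 and CDH6 had 0 reads in all 6 libraries, and CDH10 had 0 in each library labelled knockdown and 3, 5 and 5 in scramble libraries. BASP1, a membrane protein of axons that lies before CDH18, fell by 0.31. Outside the group, only BASP1, GUSBP1, LOC729862 and DROSHA were tested in this stretch. All of them fell, beside 42.5% of all genes tested, and the members there were chosen for being lower.

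HOXC10 and HOXC13 belong to the HOXC cluster on chromosome 12. Its members HOXC4, HOXC5, HOXC6, HOXC8 and HOXC9 all fell, with log2 fold changes of -3.39, -3.79, -3.64, -3.67 and -1.689. Over all genes tested, 42.5% were called lower, and 2.33% were called lower by at least 3 on the log2 scale. HOXC6 had 29, 40 and 29 reads in libraries labelled knockdown, against 413, 318 and 353 in scramble libraries. HOXC11 and HOXC12, which lie between HOXC10 and HOXC13, had 0 reads in all 6 libraries, as did the noncoding HOTAIR. The nearest gene tested beyond HOXC13, CALCOCO1, a coiled-coil coactivator, had a log2 fold change of -0.11 and did not pass (adjusted p = 0.0915, edgeR), but passed without scramble library 2 or 3 (adjusted p = 0.0382 and 0.0294). ATP5G2, the next gene, did not pass either (-0.09, adjusted p = 0.0525 by edgeR). Further out, ATF7, NPFF, TARBP2, MAP3K12 and PCBP2 fell, with log2 fold changes of -1.04, -0.78, -0.21, -1.22 and -1.03.

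IRX2 differed from its neighbour IRX1. C5orf38, which RefSeq lists as the divergent transcript of IRX2, had 0 reads in each library labelled knockdown, against 17, 20 and 26 in scramble libraries. IRX1, the next Iroquois gene, had 36, 62 and 37 reads, against 52, 38 and 35 in scramble libraries, with overlapping groups. FOXR2 also stood apart from its neighbours: USP51, a ubiquitin protease, had 13, 19 and 15 reads, against 15, 9 and 17 in scramble libraries, and RRAGB, a GTPase of amino acid sensing, rose by 2.17 (SE 0.09).

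**Figure D3:**
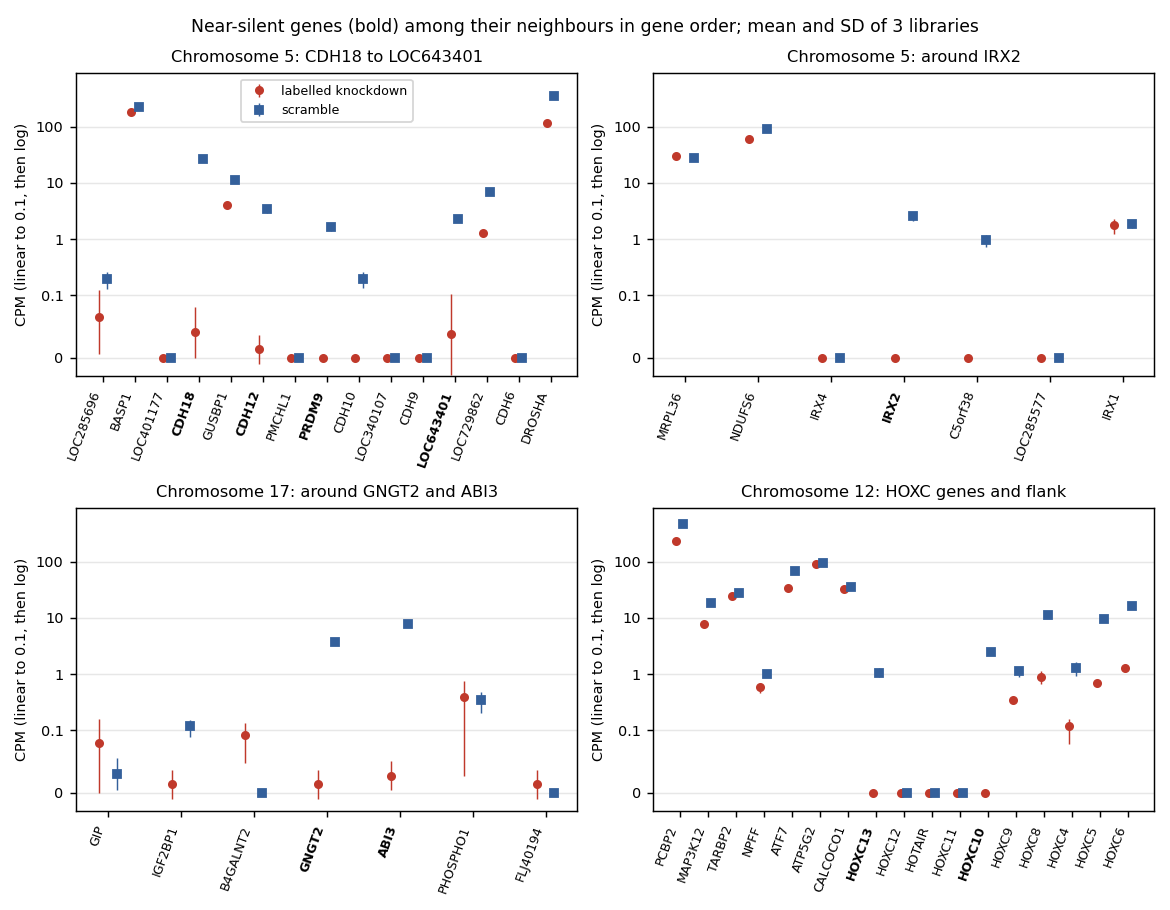
Level of the genes (y axis, TMM-scaled CPM, mean ± SD, n = 3) in gene order (x axis, not to scale) around IRX2, GNGT2 and ABI3, the HOXC genes and the genes from CDH18 to LOC643401, in libraries labelled SCUBE3 knockdown and in scramble libraries. HOXC genes from HOXC4 to HOXC9 were lower along with HOXC10 and HOXC13, whereas IRX1 near IRX2 had overlapping groups.

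Over the group, the nearest tested gene on each side gave 87 neighbours. Of these, 51 fell (58.6%) and 26 rose (29.9%), beside 42.5% and 43.4% of all genes tested. Their median log2 fold change was -0.34, against 0.01 over all genes tested, and 21 fell at least 2-fold (24.1%), beside 13.8%. With 3 neighbours on each side, 135 of 255 fell (52.9%) and 85 rose (33.3%). Neighbours are not independent where members share a locus.

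The neighbours with the smallest log2 fold changes were STXBP6, C5orf38, AMOT, LEPREL2 and LOC201651. STXBP6, a SNARE-binding protein beside LOC100505967, had 3, 2 and 3 reads in libraries labelled knockdown, against 472, 429 and 506 in scramble libraries. AMOT, an angiomotin of the Hippo pathway beside HTR2C, had 8, 5 and 2 reads, against 480, 440 and 475 in scramble libraries. LEPREL2, a collagen prolyl hydroxylase beside GNB3, had 6, 4 and 5 reads, against 206, 219 and 279 in scramble libraries. LOC201651, listed in RefSeq as AADACP1, a pseudogene related to AADAC beside it, had 3, 9 and 11 reads, against 246, 215 and 227 in scramble libraries. Reads shared between AADAC and this copy may have been dropped or assigned to either.

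Other neighbours went the opposite way. NOD2, a sensor of bacterial cell wall beside NKD1, had 48, 49 and 36 reads in libraries labelled knockdown, against 3, 3 and 1 in scramble libraries. HSPB8, a small heat shock protein beside TMEM233, rose by 2.98 (SE 0.13) on the log2 scale. TNFSF9, the ligand of a T cell costimulatory receptor beside DENND1C, rose by 2.57 (SE 0.14), and LRIG1, a negative regulator of receptor tyrosine kinases beside KBTBD8, rose by 2.48 (SE 0.05).

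**Figure D4:**
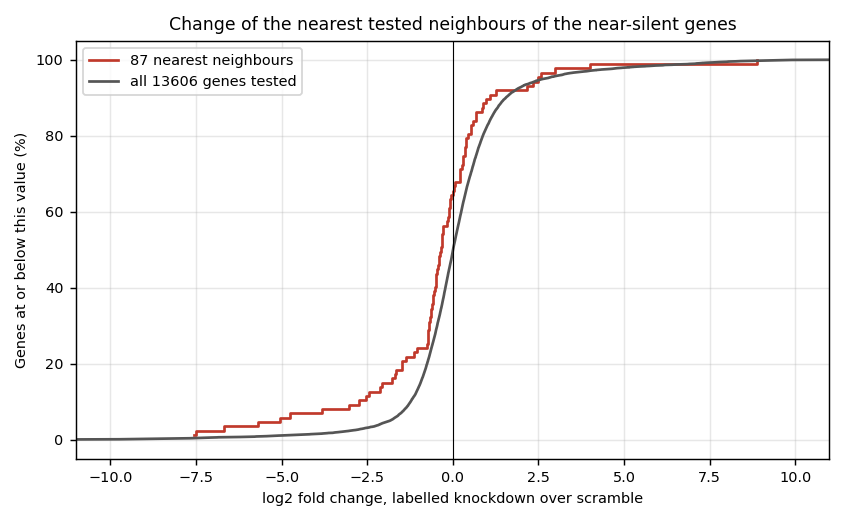
Share of genes at or below each log2 fold change (y axis, percent; x axis, libraries labelled SCUBE3 knockdown over scramble) for the 87 nearest tested neighbours of the 49 genes and for all 13606 genes tested. The neighbours had a median of -0.34, against 0.01 over all genes tested.

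Closest paralogues were also compared, from a list made once the 49 genes were known. Of 119 paralogues, 117 were in the files, 30 had 0 reads in all 6 libraries and 65 entered the fit. Of the 65, 35 fell (53.8%) and 26 rose (40%), beside 42.5% and 43.4% of all genes tested, with a median log2 fold change of -0.21. At least 2-fold, 21 fell (32.3%), beside 13.8% of all genes tested, and 11 rose, beside 17.5%. Of the 21, 5 were genes of the HOXC cluster. By a wider rule on the symbol, 134 family relatives were tested, of which 59 fell (44.0%) and 58 rose (43.3%), with a median of -0.04. These counts depend on how a family is defined: by the first 4 letters of the symbol, 115 of 367 fell and 194 rose, with a median of 0.20.

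SLITRK5, a paralogue of SLITRK4, fell to 0.714 ± 0.134 CPM in libraries labelled knockdown, against 25.96 ± 1.559 CPM in scramble libraries. The sodium channel gene SCN9A fell by 2.58 (SE 0.12) on the log2 scale. CDH4, a cadherin of the retina and brain, fell to 29.4 ± 1.77 CPM, against 90.3 ± 2.85 CPM in scramble libraries, while CDH11, a mesenchymal cadherin, rose by 0.94 (SE 0.04). Over all symbols starting CDH and a digit, 6 others were tested, of which 3 fell and 3 rose (50% each, beside 42.5% and 43.4% of all genes tested).

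The glypicans split. GPC1 rose to 56.4 ± 0.656 CPM in libraries labelled knockdown, against 24.0 ± 0.920 CPM in scramble libraries. GPC6 fell to 7.24 ± 0.241 CPM, against 14.8 ± 0.708 CPM in scramble libraries, and GPC3, which adjoins GPC4, had 0 reads in all 6 libraries. FAM84B, the paralogue of FAM84A, rose to 53.9 ± 1.43 CPM, against 17.6 ± 1.01 CPM in scramble libraries. Among kinases near LCK, FYN fell by 0.53 (SE 0.04), SRC rose by 0.40 (SE 0.05) and LYN rose by 0.31 (SE 0.06), while YES1 had 123 ± 3.997 CPM in libraries labelled knockdown and 125 ± 4.69 CPM in scramble libraries.

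ABI2, a paralogue of ABI3, fell by 1.25 (SE 0.04), and ABI1 fell by 0.21 (SE 0.04). DENND1A fell by 0.14 (SE 0.05), a call lost without library 3 labelled knockdown (-0.10, adjusted p = 0.136 by edgeR), and DENND1B fell by 0.24 (SE 0.07). Iroquois genes IRX3 and IRX5 fell by 1.22 and 1.28. TOX, a thymocyte factor, fell by 1.92 (SE 0.11) and TOX2 rose by 1.34 (SE 0.07). NAP1L5, an imprinted gene and paralogue of NAP1L2, had 84, 63 and 56 reads in libraries labelled knockdown, against 0, 1 and 0 in scramble libraries. FOXR1, EDAR, NKD2, PRDM7 and HTR2A, paralogues of FOXR2, EDA2R, NKD1, PRDM9 and HTR2C, had 0 reads in all 6 libraries. Of 24 other forkhead genes tested, 11 fell (45.8%) and 7 rose (29.2%), beside 42.5% and 43.4% of all genes tested, among them FOXA2, which fell to 32.48 ± 1.5 CPM, against 118 ± 5.05 CPM in scramble libraries.

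**Figure D5:**
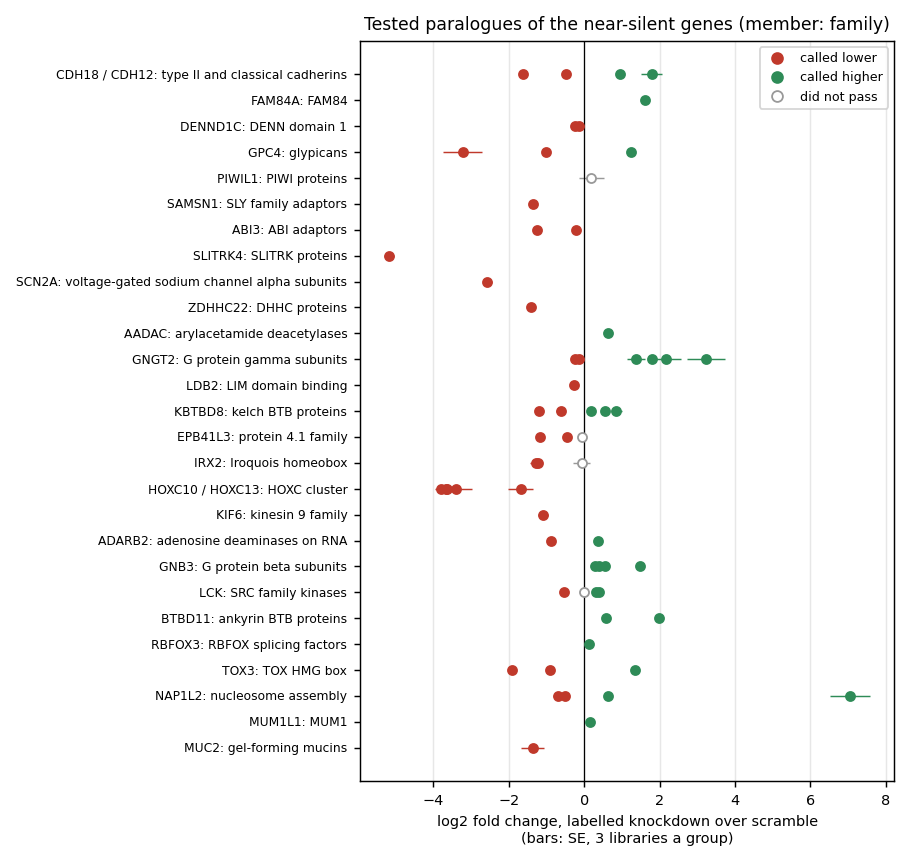
Log2 fold change (x axis, libraries labelled SCUBE3 knockdown over scramble, bars SE, 3 libraries per group) of the tested paralogues except 1 that is not shown, 1 point each, in a row for each of the 49 genes that has any (y axis). SLITRK5 at -5.17 lay far on the lower side and NAP1L5 at 7.06 far on the higher side, and 35 of 65 fell.

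Markers of the labelled line were read in both groups: AXL had 1139 ± 8.0 CPM in libraries labelled knockdown and 1281 ± 59.1 CPM in scramble libraries. The 6 markers reported high summed to 6622 to 6763 CPM in libraries labelled knockdown and 9290 to 9714 CPM in scramble libraries. Of these 6, AXL, EGFR, VIM and MSN fell, while CD44 and CAV1 rose. MSN had 1108 ± 6.25 CPM in libraries labelled knockdown and 2453 ± 94.3 CPM in scramble libraries. CD44 had 1045 ± 14.2 CPM and 577 ± 2.26 CPM in the same order. The 7 markers reported low or absent summed to 38.4 to 39.4 CPM and 54.6 to 56.8 CPM in the same order, with FOXA1, PGR and ERBB3 lower and GATA3 and CDH1 higher in libraries labelled knockdown. Against 42.5% lower and 43.4% higher over all genes tested, 1 of 2 tested melanocyte markers fell and none rose, and all 4 tested fibroblast markers rose. Of 7 tested markers of luminal epithelium 2 fell and 4 rose, and both tested endothelial markers rose. Their part in the near silence of the 49 genes was not tested.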

How the data were processed

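Polyadenylated RNA of 6 libraries was measured with a stranded mRNA kit and single reads of 50 bases, per the labels. The submitters' processing notes name hg19 as the build and, as tools, HTSeq, bcl2fastq and TopHat2 2.0.8b. The authors deposited raw read counts per gene symbol, with no normalization. How HTSeq treated strand and overlap, and with which annotation, is not given in the sources used here. Reads of genes that overlap may therefore be mixed or lost: in GENCODE, 29 of the 49 genes overlap a gene on the opposite strand and 13 one on the same strand, among them DENND1C with CRB3 and SCN2A with SCN3A. HTSeq's lines for unassigned reads entered neither totals nor tests. Reads in more than 1 place were 29.4% ± 0.175 (SD, n = 3) of all reads listed in libraries labelled knockdown. They were 34.1% ± 0.106 in scramble libraries. Reads in no gene were 11.1% ± 0.0540 and 14.7% ± 0.275 in the same order. Unaligned reads were listed as 0 in every library, so these are not shares of all reads sequenced.

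CPM of the 49 genes were computed from library totals; those of other genes were scaled by TMM, except for the genes just outside the cut-offs, which are by library totals. All 13606 genes kept by filterByExpr were tested with edgeR 4.0.16 (R 4.3.3; robust quasi-likelihood test, two-sided, group as the only term, Benjamini-Hochberg adjustment, threshold 0.05). Standard errors are the log2 fold change over the root of F. DESeq2 1.42.0 was an alternative. The fits were checked on simulated counts, in which far fewer genes changed than in these data, as many up as down. The check therefore does not cover changes as widespread as those here. Libraries were grouped by their titles, and no pair of one group was a copy of another. Ratios carry exact 95% counting intervals.

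The 49 genes and all lists were chosen with earlier results of these data known, and paralogues and roles after the members were known. The text may name all members, the smallest and largest neighbours, members of the lists by level or adjusted p, and paralogues. DNA windows came from RefSeq (GRCh38.p14), as did gene order, matched by symbol; since the files use hg19, no gene coordinates are given. Exon lengths came from GENCODE. No per-length level is given for MUC2, whose annotated length there is a fragment. C20orf197 was not placed. A few items are not reported here.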

Additional observations from a re-analysis of the deposited data

Results flagged for a closer look

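Reads that overlapped more than 1 gene enter no comparison of the report. They made up 0.593% ± 0.00441 (SD, n = 3) of all reads listed in libraries labelled knockdown, against 0.537% ± 0.00504 in scramble libraries. Every library labelled knockdown lay above every scramble library, which drew attention to them. Which genes these reads came from is not recorded in the count files, and the cause of the difference was not tested.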

How the results depend on the processing

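The number of genes depends on the cut-offs, by construction: it was 24 at 0 reads, 101 at 10 or fewer reads, 83 at a mean of 0.5 CPM, 28 at 2 CPM and 46 to 69 with each library left out in turn. Family relatives by the first 4 letters of the symbol gave 115 lower and 194 higher of 367 tested (median log2 fold change 0.20), against 59 and 58 of 134 (median -0.04), and stems of 3 letters, added after seeing the data, gave 98 lower and 81 higher of 201 (median -0.13). The balance of lower and higher relatives thus changes with the rule; the cause was not tested. With 3 neighbours on each side, 135 were lower and 85 higher, again over more genes. With each library left out in turn, the log2 fold change of SCUBE3 ranged from -0.0503 (without scramble replicate 3) to 0.0796, that of IRX1 from -0.339 to 0.0711, that of USP51 from -0.169 to 0.204 and that of YES1 from -0.0534 to 0.0132, all without passing the test. CALCOCO1 passed without scramble replicate 2 or 3 (-0.14 and -0.15), and DENND1A did not pass without knockdown replicate 3 (-0.10). Of 763 refitted values of 64 named genes outside the group, 754 kept their direction and side of the threshold. The replicate numbers did not pair the libraries: deviations of same-numbered libraries correlated at 0.0779, 0.0623 and -0.00188, and a replicate block gave 5787 genes lower and 5919 higher, against 5782 and 5899. Every other alternative run (DESeq2, other filters and scalings, each library left out) kept the counts of calls within 1.5 times.

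At 3 reads or fewer the depth shows near silence, not its extent: for the lowest gene with 0 reads the bound is 24.7-fold.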
